A study of Homo sapiens with 31 samples.

Results

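The Schlafen family was followed here through 5 of its genes, SLFN5, SLFN11, SLFN12, SLFN13 and SLFN14, which were picked by gene name among the 19221 genes of the deposited expression table and are called the members below. mRNA was sequenced from 31 libraries of human ovarian cancer cell lines in 4 groups. C13* is a cisplatin-resistant, homologous recombination-proficient line whose origin has been disputed, and its libraries carried either a control shRNA (shCON, n = 7) or an shRNA against CEBPB delivered by lentivirus (shCEBPB, n = 8). CEBPB encodes the transcription factor C/EBPβ. A2780 is a parent line without olaparib treatment (n = 8), and A2780 OlaR (n = 8) is a strain derived from it by growth in rising amounts of olaparib, a PARP inhibitor, until its IC50 was at least 30 times that of the parent. The study asked how C/EBPβ bears on olaparib resistance. The strain and the knockdown culture were each 1 line, and nothing in the labels says that libraries of a group came from separate selections or infections, so p-values measure the spread between libraries, which may be technical.

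Schlafen proteins share a core domain with nuclease-like features, and the longer members also carry a helicase-like domain. Many Schlafen genes are induced by type I interferon. SLFN11 is recruited to stressed replication forks through the single-strand binding protein RPA and blocks further replication there, and its absence is a widely studied marker of a weaker response of cancer cells to PARP inhibitors and platinum. SLFN5 is a nuclear member that can act on interferon-dependent transcription, SLFN12 is an RNase that PDE3A can bind and stabilise, SLFN13 cleaves transfer and ribosomal RNA, and SLFN14 is a ribosome-associated endoribonuclease known from platelet disorders.

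The members lie in a cluster on the long arm of chromosome 17, in an interval of 317749 bp of hg38 (GENCODE 44). SLFN12L, which is not among the members, lies between SLFN13 and SLFN14. SLFN5 is on the plus strand from 35243071 to 35273655 with 5 exon blocks, the merged exons of its transcripts. The other members are on the minus strand, SLFN11 from 35350305 to 35373701 (6 exon blocks), SLFN12 from 35410922 to 35433283 (7 exon blocks), SLFN13 from 35435096 to 35448837 (9 exon blocks) and SLFN14 from 35543985 to 35560819 (6 exon blocks). Exons of SLFN14 share 347 bp with a lncRNA gene on the opposite strand, and since the use of strand in counting is not stated, reads of this stretch cannot be assigned. SLFN11 and SLFN13 also share sequence, since 5.19% of the 150-base windows of the SLFN11 transcripts also occur in SLFN13 and 3.71% of those of SLFN13 occur in SLFN11. No window was shared between any other pair of members.

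Promoter sequences, from 250 bases before to 50 after the gene start, were in the RefSeq table (GRCh38.p14) for 2 of the 5 members, SLFN11 (chr17:35373572-35373871, minus strand) and SLFN12 (chr17:35433125-35433424, minus strand). They are shown on the strand of the gene because one gene set in this study was made by lowering a transcription factor, and capitals mark every match, on either strand, to a C/EBP motif (TTGCNNAA), an interferon response motif (GAAANNGAA), a gamma-activated site (TTCNNNGAA) or an ETS motif (CCGGAA), where N is any base.
SLFN11: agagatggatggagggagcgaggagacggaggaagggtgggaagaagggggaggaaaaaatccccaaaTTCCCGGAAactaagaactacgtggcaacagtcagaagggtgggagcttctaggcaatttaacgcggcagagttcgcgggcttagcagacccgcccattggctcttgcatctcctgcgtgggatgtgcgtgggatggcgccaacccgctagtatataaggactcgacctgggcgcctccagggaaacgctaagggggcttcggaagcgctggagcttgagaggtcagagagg
SLFN12: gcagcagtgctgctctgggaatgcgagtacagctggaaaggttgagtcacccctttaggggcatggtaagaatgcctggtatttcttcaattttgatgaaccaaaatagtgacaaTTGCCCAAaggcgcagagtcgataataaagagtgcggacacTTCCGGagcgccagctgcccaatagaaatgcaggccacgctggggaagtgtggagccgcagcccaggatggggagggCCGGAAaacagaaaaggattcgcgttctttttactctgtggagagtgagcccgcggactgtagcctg
The SLFN12 promoter held 1 match to the C/EBP motif, starting at position -135 with the gene start as 0, and the SLFN11 promoter held 0. Of all 35116 promoters of this length, 10.5% held the C/EBP motif, 8.11% the interferon response motif, 7.66% the gamma-activated site and 17.2% the ETS motif. The capitals in SLFN11 are a gamma-activated site and an ETS motif that overlap, and those in SLFN12 after the C/EBP match are 2 ETS motifs. The interferon response motif matched neither. SLFN11 had 18 CpG dinucleotides and SLFN12 had 13, where the median promoter had 14. A match is a string of letters and not a bound site.

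The deposited values were FPKM, which scale the fragments on a gene by its length and by library size, so levels can be set side by side between genes. Absolute depth is unknown from FPKM. Low values came in steps, and relative depths of 0.865 to 1.23 across libraries were fitted to them. After that fit 91.5% of the 14928 examined were a whole number of steps within a tolerance of 0.05. This share comes from the fitted values, so it is not a separate check of the depths. The FPKM of a library summed to between 417556 and 454578. One shCON library, replicate 1, has A2780 in its cell line field and C13* in its title, and it was kept as shCON. Across 12967 expressed genes the log2 FPKM of shCON libraries correlated with those of A2780 OlaR at a median r of 0.989, with shCEBPB at 0.789 and with A2780 at 0.710, and A2780 correlated with A2780 OlaR at 0.706. So the groups that go together in expression are not those that share a line name. The library codes begin with C for A2780 OlaR and CS for shCON, and with O for A2780 and R for shCEBPB. The labels were used as given, and whether each group holds the line it is named for could not be checked here, so every contrast rests on them. Of 9 squamous and epithelial markers (KRT5, KRT14, KRT17, KRT19, TP63, SFN, DSP, CDH1 and EPCAM), 8 were called lower in shCEBPB against shCON, DSP being the other, and 9 were called higher in A2780 OlaR against A2780. Their summed FPKM was 4705 to 5475 in shCON, 4819 to 6106 in A2780 OlaR, 276 to 573 in shCEBPB and 30.0 to 32.4 in A2780, where KRT5 was at 0 in all 8 libraries. The simple epithelial markers KRT7, KRT8 and KRT18 were each called higher in both comparisons. They summed to 1774 to 2148 FPKM in shCEBPB, 738 to 837 in shCON, 716 to 824 in A2780 OlaR and 83.9 to 92.2 in A2780. The mesenchymal markers VIM, CDH2, ZEB1 and ZEB2 summed to 857 to 898 in A2780, 343 to 372 in shCEBPB, 25.3 to 29.5 in shCON and 17.1 to 21.4 in A2780 OlaR. In shCEBPB against shCON, 3 of these 4 were called higher and CDH2 lower, and in A2780 OlaR the 3 tested were called lower. PTPRC, a leukocyte marker, was at 75.7 to 103 FPKM in A2780 and at or below 0.0144 in every library of the other groups. The 6 fibroblast markers summed to 355 to 411 in A2780, mostly COL3A1, and to at most 18.9 elsewhere. The 6 ovarian markers summed to 996 to 1102 in shCEBPB, mostly FOLR1, and to at most 41.9 elsewhere. Of the 3 tested in shCEBPB against shCON, FOLR1 and MSLN were called higher and PAX8 lower. PAX8 was at 0.413 to 0.672 FPKM in shCEBPB and at 0.306 to 0.673 in A2780. It was at 5.74 to 6.4 in shCON and at 5.18 to 6.93 in A2780 OlaR. Of the untested markers, WT1 had a lower mean in shCEBPB than in shCON (0.0232 against 0.819), and MUC16 and EMX2 had higher means. Cell identity and the named treatment therefore moved together in both comparisons, and their parts in the results on the Schlafen genes cannot be told apart.

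SLFN5 was by far the most abundant member in these lines and the only member with at least 1 FPKM in any library. It was high in C13* shCON and A2780 OlaR, lower in shCEBPB and lowest in A2780. In shCON the lowest, median and highest FPKM of SLFN5 were 16.0, 17.7 and 19.1, and in shCEBPB they were 3.72, 5.44 and 8.38. Every shCEBPB library was below every shCON library. In A2780 the values were 1.08, 1.27 and 1.47, and in A2780 OlaR they were 13.6, 14.6 and 17.5. Every A2780 OlaR library was far above every A2780 library.

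**Figure D1:**
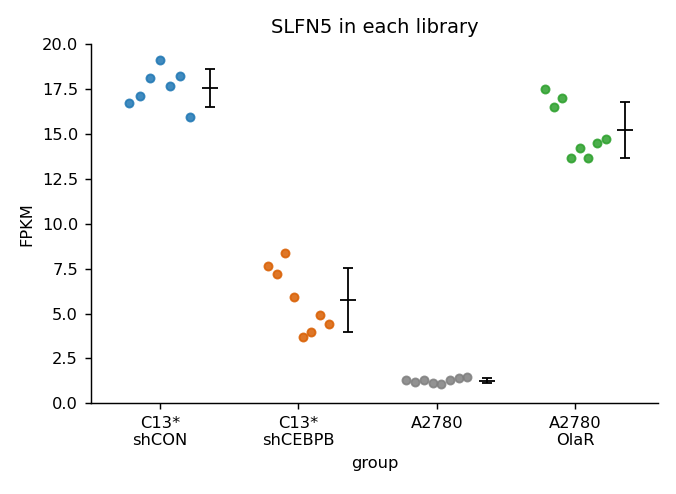
FPKM of SLFN5 in each of the 31 libraries by group, 1 point per library in replicate order, with the mean and SD beside them as a black bar. The shCON points lie between 16.0 and 19.1 and the A2780 OlaR points between 13.6 and 17.5, while the shCEBPB points stop at 8.38 and the A2780 points at 1.47.

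The shCON libraries had a mean SLFN5 level of 17.6 ± 1.05 FPKM (SD, n = 7), 3.04-fold that of the shCEBPB libraries at 5.77 ± 1.79 FPKM (SD, n = 8). SLFN5 fell by 1.50 on the log2(FPKM + 1) scale in shCEBPB (standard error 0.13, limma, Benjamini-Hochberg adjusted p = 7.27e-09). The exact two-sided permutation test gave p = 0.000311, the smallest that 7 against 8 libraries allow. Without shCON replicate 1 the change was -1.51 (limma, adjusted p = 3.75e-08). SLFN5 was the 1 member that passed the filter of at least 1 FPKM and it was called. Beside it, 84.7% of the 12006 genes tested were called, 45.7% as lower and 38.9% as higher, so a call alone does not set SLFN5 apart from other genes.

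In A2780 the mean of SLFN5 was 1.27 ± 0.136 FPKM (SD, n = 8) and in A2780 OlaR it was 15.2 ± 1.55 (SD, n = 8), a 12-fold higher level. SLFN5 rose by 2.84 on the log2(FPKM + 1) scale in A2780 OlaR (standard error 0.06, limma, adjusted p = 6.45e-20), and the exact permutation test gave p = 0.000155, the smallest that 8 against 8 libraries allow. With a pseudocount of 0.01 in place of 1, the change was 3.58, since the level in A2780 was near the pseudocount. Of the 12458 genes tested, 89.8% were called, 40.1% as higher and 49.7% as lower.

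The order of the 4 groups for SLFN5 was shCON, A2780 OlaR, shCEBPB and A2780. The 2 highest groups overlapped. In 1 limma fit of all groups, shCON was above A2780 OlaR by 0.20 on the log2 scale with an adjusted p of 0.145, where 37.7% of 12967 genes were called. That call depended on the libraries that set the spread, since a limma fit of those 2 groups alone gave an adjusted p of 0.0105 and the exact permutation test of them a p of 0.00808. SLFN5 was 4.55-fold higher in shCEBPB than in A2780, with a log2 difference of 1.54 (limma, adjusted p = 1.91e-15), where 88% of genes were called.

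CEBPB, the gene the shRNA targets, was lower in shCEBPB than in shCON by 0.87 on the log2 scale (limma, adjusted p = 1.42e-06), and the libraries did not overlap, at 30.2 to 58.7 FPKM against 75.2 to 101. In A2780 CEBPB was at 85.6 to 111 FPKM and in A2780 OlaR at 97.1 to 127. A2780 libraries had as much CEBPB as shCON libraries, and their SLFN5 was the lowest of the 4 groups, but these are different lines. CEBPB was called higher in A2780 OlaR than in A2780, by only 0.16 on the log2 scale (limma, adjusted p = 0.0202), with libraries that overlapped. Within shCEBPB, the libraries numbered 1 to 3 had 30.2 to 42.1 FPKM of CEBPB and 7.21 to 8.38 of SLFN5. Those numbered 4 to 8 had 47.7 to 58.7 of CEBPB and 3.72 to 5.94 of SLFN5. Within shCEBPB, less CEBPB thus went with more SLFN5, a split that is also that of the library numbers. The drop of SLFN5 against shCON was -1.07 in libraries 1 to 3 and -1.75 in libraries 4 to 8 on the log2 scale, both called by limma. In A2780 OlaR, which had no knockdown, the libraries 1 to 3 were also higher in SLFN5, at 16.5 to 17.5 FPKM against 13.6 to 14.7 in 4 to 8. CEBPB there was at 97.1 to 109 FPKM in libraries 1 to 3 and at 105 to 127 in 4 to 8. What the library number stands for is not stated. Neither its part nor that of CEBPB in these SLFN5 values was tested, and within a group the 2 cannot be told apart.

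SLFN11, the member tied to the response to PARP inhibitors, was below 1 FPKM in every library and was detected throughout only in C13* shCON. Its lowest, median and highest values there were 0.545, 0.634 and 0.732 FPKM. It was listed at 0 in all 8 shCEBPB libraries and in 7 of 8 A2780 libraries, with 0.0109 in the other A2780 library. In A2780 OlaR it was at 0 in 1 library, with a median of 0.0123 and a highest value of 0.0826. The olaparib-resistant strain and its parent were therefore both near or at 0 for this gene, and the C13* control cells were the exception.

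No fold is given for SLFN11 because the compared groups reached 0. A step was fitted to the nonzero values of SLFN11 so that they were whole multiples of it, within 0.1 of a step. It was worth 0.00498 FPKM at median depth, so 3 steps came to 0.0149 FPKM. On this scale shCON libraries held 99 to 171 steps, the 8 A2780 OlaR libraries 41 in total and the 8 A2780 libraries 2. Whether a step is exactly 1 fragment is not known. The difference between shCEBPB and shCON was -0.71 on the log2(FPKM + 1) scale, a scale that compresses differences near 0, with an exact permutation p of 0.000311. Between A2780 OlaR and A2780 it was 0.03, with overlapping libraries and an exact permutation p of 0.00264. The median of 0.0123 FPKM in A2780 OlaR was under the 3-step level, so this difference lies at the edge of what this depth can show.

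SLFN13, which lies beyond SLFN12 in the cluster, had the same kind of all-or-none pattern and also separated the A2780 groups. Its lowest, median and highest values were 0.300, 0.329 and 0.432 FPKM in shCON and 0.194, 0.241 and 0.311 in A2780 OlaR. It was listed at 0 in all 8 shCEBPB libraries and in 7 of 8 A2780 libraries, the other A2780 library having 0.00571. Neither comparison had overlapping libraries. The log2 difference was -0.43 for shCEBPB against shCON (exact permutation p = 0.000311) and 0.31 for A2780 OlaR against A2780 (exact permutation p = 0.000155). SLFN13 held 61 to 99 steps in the A2780 OlaR libraries and SLFN11 at most 20. These genes share sequence, and whether the low SLFN11 values in A2780 OlaR came from SLFN13 reads was not tested.

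SLFN12 was low in all groups and was the only one of the 4 low members with values above 0 in most shCEBPB libraries. Its lowest, median and highest values were 0.329, 0.456 and 0.542 FPKM in shCON and 0, 0.0961 and 0.213 in shCEBPB, where 2 libraries were at 0. They were 0, 0.0228 and 0.0572 in A2780 and 0.0927, 0.191 and 0.413 in A2780 OlaR. Both comparisons had libraries that did not overlap. The log2 difference was -0.42 for shCEBPB against shCON (exact permutation p = 0.000311) and 0.26 for A2780 OlaR against A2780 (exact permutation p = 0.000155).

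SLFN14 was the least abundant member in shCON, and it did not pass the exact permutation test between the A2780 groups. Its lowest, median and highest values were 0.0445, 0.116 and 0.138 FPKM in shCON and 0, 0 and 0.0189 in shCEBPB, with no overlap and a log2 difference of -0.14 (exact permutation p = 0.000311). In A2780 they were 0, 0.0259 and 0.0775 and in A2780 OlaR 0, 0.0271 and 0.0803. The A2780 groups overlapped almost completely, with a log2 difference of 0.01 (exact permutation p = 0.733). A change of SLFN14 was not detectable at this depth, where 3 steps of its values came to 0.0267 FPKM. SLFN14 is best known from platelets, and of 9 platelet and blood cell markers PF4 was at 0 in all 31 libraries. The sum of the 9 was 76.0 to 103 FPKM in A2780, nearly all of it PTPRC, and at most 7.72 FPKM in the other groups, most of it ITGA2B.

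**Figure D2:**
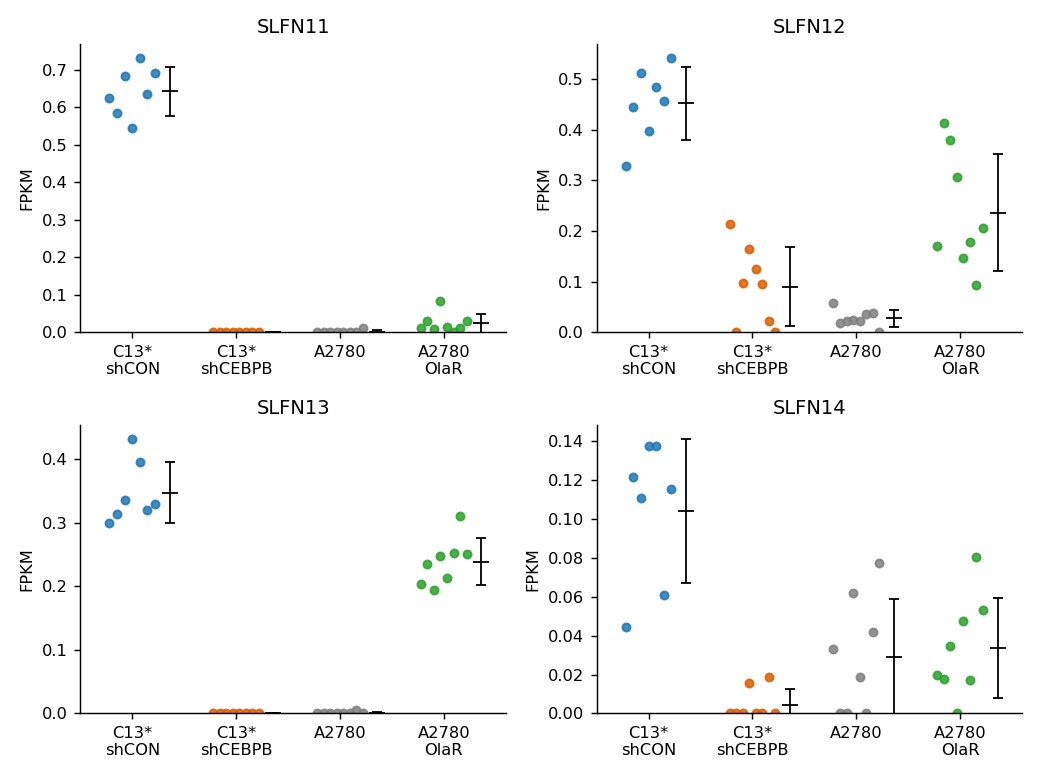
FPKM of SLFN11, SLFN12, SLFN13 and SLFN14 in each library by group, each panel with its own linear axis from 0, 1 point per library and a black bar for the mean and SD (cut at 0 where it would go below). SLFN11 stands off 0 in shCON, SLFN13 in shCON and A2780 OlaR, and SLFN14 has overlapping A2780 and A2780 OlaR points.

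Of the 5 members, none overlapped between shCEBPB and shCON, and all 5 had a lower mean in shCEBPB. Among the 17334 genes above 0 in any library of that comparison, 54.2% also did not overlap. Between A2780 OlaR and A2780, 3 of the 5 members did not overlap (SLFN5, SLFN12 and SLFN13, all higher in A2780 OlaR), against 60.4% of 17638 genes. Without shCON replicate 1, SLFN11, SLFN12, SLFN13 and SLFN14 each kept a lower mean in shCEBPB, with an exact permutation p of 0.000666, the smallest that 6 against 8 libraries allow. Without the filter on low FPKM, limma called 5 of 5 members in the C13* comparison and 4 of 5 in the A2780 comparison, where it called 73.5% and 77.7% of all genes. The share of members with a difference was thus near that of all genes in the A2780 comparison. SLFN14 was the member not called, with an adjusted p of 0.752, and SLFN11 was called with an adjusted p of 0.0412.

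The order of the groups differed between members. shCON had the highest mean of all 5. For SLFN12 and SLFN13, A2780 OlaR came next at means of 0.236 and 0.239 FPKM, below the shCON means of 0.452 and 0.347, with libraries that overlapped in both genes and exact permutation p of 0.00218 and 0.000622. For SLFN11, A2780 OlaR was second but at a mean of 0.0235 FPKM against 0.642, with no overlap. For SLFN14, A2780 OlaR and A2780 were level at means of 0.0338 and 0.0291. The 2 lowest groups, shCEBPB and A2780, could not be told apart for SLFN11 and SLFN13, each nearly all at 0 (exact permutation p = 1 for both). They overlapped for SLFN12 (exact permutation p = 0.0444) and SLFN14 (exact permutation p = 0.0499). Neither gene was called in an unfiltered limma fit of all 4 groups (adjusted p = 0.0997 and 0.0823). Across all 31 libraries the members correlated on the log2 scale with r from 0.44 (SLFN5 and SLFN14) to 0.85 (SLFN5 and SLFN13), a description that the 4 group means dominate. After the group means were removed, r ran from -0.21 (SLFN12 and SLFN13) to 0.49 (SLFN13 and SLFN14).

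The genes whose levels followed SLFN5 most closely were ADSS, an adenylosuccinate synthase of purine synthesis, FGFBP1, a secreted carrier of fibroblast growth factors, and PSD3. Their r with SLFN5 over 31 libraries was 0.99 each, and 0.92, 0.89 and 0.88 after group means were removed. Such likeness was common, as 386 of 12966 genes (2.98%) reached an r of 0.95. The mean FPKM of FGFBP1 was 85.6 in shCON, 67.0 in A2780 OlaR, 9.0 in shCEBPB and 0.0701 in A2780. That is the order of groups of SLFN5, and PSD3 had it too, while the mean of ADSS was 54.7 in A2780 OlaR and 54.0 in shCON.

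Among genes of the interferon pathway, which induces Schlafen genes, more were lower than higher in shCEBPB, and A2780 OlaR was mixed. The counts of this and the other lists stand against all genes tested, of which 45.7% were lower and 38.9% higher in shCEBPB and 49.7% lower and 40.1% higher in A2780 OlaR. Of 9 receptor and signalling genes, 6 were lower and 3 higher in shCEBPB than in shCON, with a median log2 change of -0.38 where the median of all genes was -0.07. IRF1, an interferon-induced activator, fell most, with a log2 change of -1.37 (limma, adjusted p = 1.78e-13), and IRF7 rose most, by 1.75 (limma, adjusted p = 3.72e-09). IRF9, the DNA-binding part of the interferon-activated complex, fell by 1.20. In A2780 OlaR against A2780, 5 were higher, 2 lower and 2 not called, with a median of 0.23 where that of all genes was -0.12. IRF1 rose by 2.09 (limma, adjusted p = 2.09e-18), while IFNAR2, a chain of the receptor, fell by 0.63.

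Of 40 interferon-stimulated genes other than Schlafens, 33 were tested in the C13* comparison, and 26 were lower and 7 higher in shCEBPB, with a median log2 change of -0.99. TRIM22, an antiviral ubiquitin ligase, had the lowest log2 change, -4.13, from 15.2 to 18.5 FPKM in shCON to at most 0.0668 in shCEBPB. IFITM2, which restricts virus entry, rose most, by 5.80, to 142 to 162 FPKM. The summed FPKM of the 40 genes went the other way from the count, at 732 to 763 in shCON and 898 to 1075 in shCEBPB. IFITM3, at 325 to 444 FPKM against 142 to 166 in shCON, was the largest part of the shCEBPB sum. BST2 (222 to 274 FPKM, against 33.5 to 40.3 in shCON) and IFITM2 also made up much of it. In the A2780 comparison 34 were tested, and 17 were higher, 14 lower and 3 not called, with a median of 0.11. Their summed FPKM was 835 to 939 in A2780 and 653 to 712 in A2780 OlaR. TRIM22 rose by 3.85 in A2780 OlaR and ISG20, an exonuclease, fell by 3.25. The genes of this list went both ways in A2780 OlaR, and SLFN5, SLFN12 and SLFN13 were all higher there. Whether interferon had a part in the levels of the Schlafen genes was not tested.

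**Figure D3:**
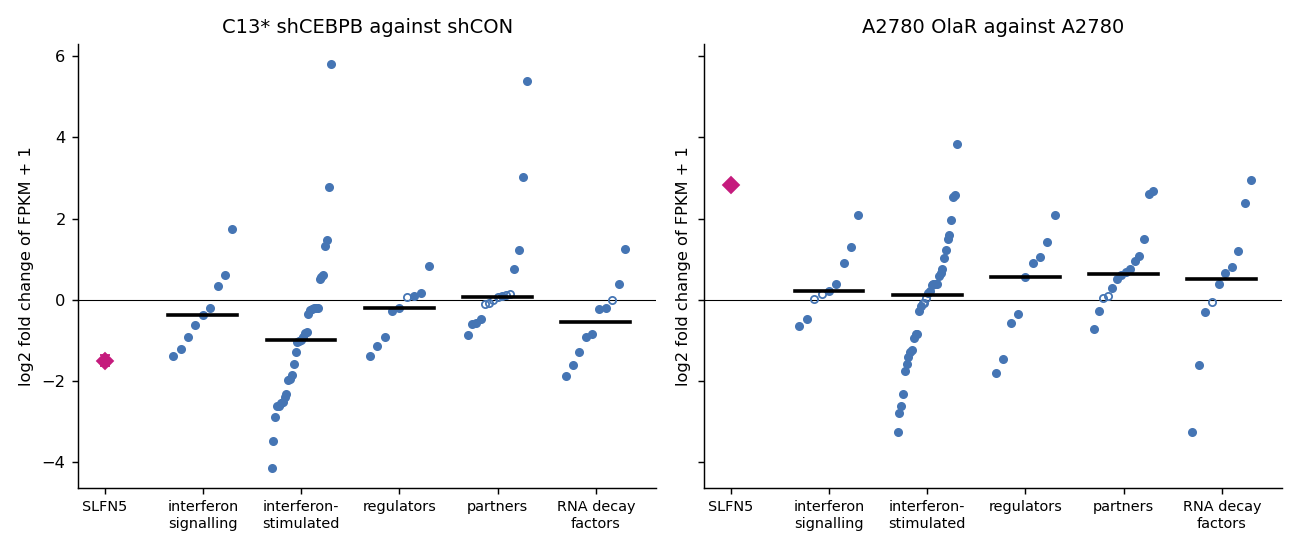
Log2 fold change of FPKM + 1 for SLFN5 (diamond, with its standard error) and for each tested gene of 5 lists (circles, filled where the adjusted p was under 0.05), C13* shCEBPB against shCON on the left and A2780 OlaR against A2780 on the right, with a black bar at each list's median. The interferon-stimulated genes have a median of -0.99 on the left and 0.11 on the right, and SLFN5 stands at -1.50 and 2.84.

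Regulators with a known link to Schlafen expression were also followed. FLI1, an ETS factor linked to SLFN11 in Ewing sarcoma, was at 0 in all 31 libraries. Of the 9 others tested, 5 were lower, 3 higher and 1 not called in shCEBPB (median -0.21), and 5 were higher and 4 lower in A2780 OlaR (median 0.56). ETS1 fell by 1.15 in shCEBPB and rose by 1.41 in A2780 OlaR. The DNA methyltransferase gene DNMT3A rose by 0.82 in shCEBPB, and in A2780 OlaR its log2 change was -1.81, the lowest of the list. DNMT3B changed in the same directions, by 0.16 and -1.46. DNMT1 went the other way, by -0.28 in shCEBPB and 1.05 in A2780 OlaR. IRF1 stands in this list and in the signalling list.

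Among 15 genes of proteins that Schlafen proteins bind or act with, 5 were higher, 4 lower and 6 not called in shCEBPB, with a median log2 change of 0.07. PDE3A, the phosphodiesterase that binds SLFN12, rose most, by 5.38 (limma, adjusted p = 1.18e-20). It was at 33.9 to 49.7 FPKM in shCEBPB and at or below 0.0637 in every library of the other groups. SLFN12 was at or below 0.213 FPKM in that group. CUL4A, a scaffold of the ubiquitin ligase that degrades the licensing factor CDT1, rose by 3.02. In A2780 OlaR, 10 of 14 tested partners were higher, 2 lower and 2 not called, with a median of 0.64. CDT1 rose by 2.68, the replicative helicase subunit MCM3 by 2.61 and the checkpoint kinase CHEK1 by 1.51. The RPA subunits RPA1, RPA2 and RPA3, which bring SLFN11 to stressed forks, rose by 0.29, 0.60 and 0.96 in A2780 OlaR. In shCEBPB they went both ways, with log2 changes of 1.24, -0.56 and -0.47, all called.

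Of 10 other interferon-linked nucleases and RNA decay factors, 7 were lower, 2 higher and 1 not called in shCEBPB (median -0.54), and 6 were higher, 3 lower and 1 not called in A2780 OlaR (median 0.52). ANG, a secreted RNase, fell most in shCEBPB, by 1.87. ZC3H12A, an RNase that limits inflammatory mRNA, rose most in A2780 OlaR, by 2.96. SAMHD1, ISG20 and ZC3HAV1 are also among the interferon-stimulated genes.

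The neighbours of the cluster were compared as well. Of 25 other genes within 500 kb that had a row, 11 were tested in the C13* comparison, and 7 were lower, 1 higher and 3 not called, where 84.7% of all genes were called and 45.7% were lower. In the A2780 comparison 13 were tested, and 11 were higher and 2 lower, where 89.8% of all genes were called and 40.1% were higher. On the side of SLFN5, the nearest tested neighbour was NLE1, a ribosome assembly factor, which was not called in shCEBPB (log2 change -0.01, limma, adjusted p = 0.912) and rose by 2.13 in A2780 OlaR. The repair genes LIG3 and RAD51D lay on that side too, where LIG3 fell by 0.60 and RAD51D rose by 0.24 in shCEBPB, and they rose by 0.83 and 0.72 in A2780 OlaR. Beyond SLFN14, AP2B1, a subunit of the clathrin adaptor complex, fell by 1.55 in shCEBPB and rose by 1.16 in A2780 OlaR. MMP28, a metalloproteinase, had the largest changes of the neighbours, a log2 change of -3.86 in shCEBPB and of 5.51 in A2780 OlaR. RDM1 changed by -2.58 and 3.59. UNC45B and SLC35G3, between NLE1 and SLFN5, had group means of at most 0.0167 FPKM. SLFN12L, another Schlafen gene inside the interval, was above 0 in a single library, an shCEBPB library at 0.0813 FPKM.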

How the data were processed

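The libraries and their groups were as the sample labels give them. Per the study's methods, the authors aligned 150-bp read pairs to hg38 by TopHat and used HTSeq for gene counts. They deposited FPKM, in a single table of all libraries, and this table was used. The tool and annotation behind the FPKM, and whether counting used the strand, are not given in the sources used here. The 4 entries that shared 2 repeated symbols were left out.

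Changes were tested with limma 3.58.1 in R 4.3.3 (lmFit, eBayes with a trend, two-sided) on log2(FPKM + 1), in genes that reached 1 FPKM in at least as many libraries as there were in the smaller group, with Benjamini-Hochberg adjustment over all genes tested and calls at an adjusted p under 0.05. The 4 members under that filter, and SLFN5 as well, were compared in 4 contrasts by an exact permutation test, two-sided, on mean log2(FPKM + 1). Fold changes on this scale understate the change of low genes. On simulated data limma found 200 of 200 changed genes in the C13* comparison (12006 genes) and 5.21% of its calls were false, and in the A2780 comparison (12458 genes) 200 of 200 and 8.26%. Each planted change was 1 on the log2 scale, in genes above the levels of the low members and of SLFN5 in A2780. In the real data 84.7% and 89.8% of genes were called, far more than were planted. The simulation therefore says nothing of the calls of the members. Python 3.11.15, pandas 2.3.3, numpy 2.4.6 and matplotlib 3.10.9 were used.

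Named genes are the members, CEBPB, list genes with the largest and smallest changes among those called and the genes that give a list its meaning, the neighbours, and the 3 genes with the highest r with SLFN5. Markers, KRT5, VIM, PTPRC, COL3A1, FOLR1 and ITGA2B among them, were named for their values. The members and the gene lists were chosen with earlier results of these data known. The alternatives were pseudocounts of 0.1 and 0.01, no filter, 1 fit of all 4 groups, quantile normalization, scaling to a common sum, a replicate block, library numbers 1 to 3 or 4 to 8, and leaving out shCON replicate 1. The fit of only the 2 groups of a contrast was added after seeing the data. Some genes of the lists and neighbours are counted but not reported here by name.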

Additional observations from a re-analysis of the deposited data

Results flagged for a closer look

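In 3 of the 18 member-and-group sets with a spread, 1 library stood off from the rest by more than Dixon's 95% limit. Chance flags about 1 in 20 sets of continuous values, a rate that does not apply to the 2 sets in which all other libraries were at 0, where any single value above 0 passes. SLFN11 in A2780 replicate 8 was at 0.0109 FPKM where the other 7 libraries were at 0. SLFN13 in A2780 replicate 7 was at 0.00571 FPKM where the others were at 0. SLFN11 in A2780 OlaR replicate 4 was at 0.0826 FPKM, and the next library was at 0.0301. The cause was not tested for any of the 3.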

How the results depend on the processing

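SLFN5 kept its direction and its call under every alternative run in both main comparisons, with a log2 change of -1.07 to -1.75 in shCEBPB and of 2.73 to 3.58 in A2780 OlaR. Without the filter on low FPKM the members called went from 1 to 5 in the C13* comparison and from 1 to 4 in the A2780 comparison, since the low members then entered the test. SLFN5 in shCON against A2780 OlaR passed the threshold in libraries 4 to 8 (0.31, limma, adjusted p = 0.00532) and in a fit of only those 2 groups (0.20, limma, adjusted p = 0.0105), against adjusted p of 0.145 to 0.790 in the other alternatives, and in libraries 1 to 3 it was 0.02. SLFN14 in A2780 OlaR against A2780 turned sign in libraries 4 to 8, at -0.00042 (exact permutation p = 0.992), from 0.01. With 3 against 3 libraries the exact permutation test cannot go below 0.1, so libraries 1 to 3 say nothing of the calls of the low members. The fit of all 4 groups was not run for the low members in the main comparisons. It was run without the filter for the contrasts between lines. In shCEBPB against A2780 no low member was called by limma, SLFN14 having the lowest adjusted p, 0.0823. In shCON against A2780 OlaR the highest adjusted p of the low members was 0.000202 (limma, SLFN14). Among neighbours in shCEBPB, 2 were higher without the filter and 2 in 1 fit of all groups, 0 in libraries 1 to 3, and 12 were lower without the filter. In A2780 OlaR 1 neighbour was lower after quantile normalization, and 1 partner was lower in libraries 1 to 3. With the replicate block SLFN5 changed by -1.46 and 2.84, and no call of a member changed. The block and the pairs below follow the replicate number, and shCON replicates 6 and 7 are the libraries numbered 7 and 8. Libraries with the same replicate number had a mean r of -0.15 (C13*) and -0.23 (A2780) between the groups of a comparison. Single pairs ran from -0.51 to 0.46 (C13*) and from -0.59 to 0.12 (A2780). The replicate numbers were therefore not taken as pairs, and pairing by library number was not examined. The block called 9859 genes in the C13* comparison and 10960 in the A2780 comparison. Without shCON replicate 1 SLFN5 changed by -1.51. FPKM hold no read totals, so depth limits the low members in a way that could not be given as an interval.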
